A study of Mus musculus with 8 samples.

Results

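The 8 genes examined here move calcium into or out of the sarcoplasmic or endoplasmic reticulum. They are the SERCA pumps Atp2a1, Atp2a2 and Atp2a3, the ryanodine receptors Ryr1, Ryr2 and Ryr3, and the small SERCA-binding proteins sarcolipin (Sln) and phospholamban (Pln). Their levels were followed in brown adipose tissue (BAT) during pressure overload of the heart. Every probe whose RefSeq accession maps to 1 of these genes was taken. Of the 8 genes, 7 had a probe, with 8 probes among the 55681 on the array, and 5 genes with 6 probes were bright enough to be tested among 33364 tested probes. No probe matched Ryr3, which is not analysed here. BAT came from male C57BL/6NCrSlc mice operated on at 11 weeks of age, with 4 mice after thoracic aortic constriction (TAC), which narrows the aorta, and 4 after the sham operation (Sham), all kept at 23 °C on normal chow. By the labels the tissue was taken at 13 weeks of age, 2 weeks after the operation, although their description line says 4 weeks. None of the labels names a transgene or a drug in either group. RNA of each mouse was hybridized to 1 one-colour Agilent array, and the questions here are how the levels of these genes compared between TAC and Sham, and which of them moved with the skeletal muscle RNA that each BAT sample carried.

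SERCA pumps use ATP to move calcium from the cytosol into the reticulum, and ryanodine receptors let it out again. Atp2a1 (SERCA1) is the pump of fast skeletal muscle, and Ryr1 is the release channel of skeletal muscle. Atp2a2 (SERCA2) has a splice form in heart and slow muscle and another in nearly every cell. Atp2a3 (SERCA3) is best known from blood cells, endothelium and epithelia, and Ryr2 is the release channel of heart muscle. Pln slows the pump in heart, and Sln lets it spend ATP without moving calcium, so that muscle makes heat. Calcium cycling by SERCA2 and ryanodine receptors is also known as a source of heat in beige fat cells that does not need Ucp1.

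Levels are given as relative intensity, the spot's brightness over the 75th percentile of its array, so that 1 marks that percentile. They can be compared between arrays for 1 probe, but not between probes. Between 54.5% and 64.3% of the spots were well above background on the 7 arrays with a scanner file, and Sham replicate 1 is known only from the authors' table of all 8 arrays, without such a flag. The brown fat identity of the samples was plain in that table: Ucp1, the uncoupling protein of brown adipocytes, was between 377 and 945, and Cidea, a lipid droplet protein of these cells, between 1234 and 1860. The array TAC replicate 1 stood apart. Its 12 brown adipocyte markers lay 1.04 log2 units below the mean of the 4 Sham arrays (written as -1.04 in the heat map of marker lists), its 7 macrophage markers 0.87 above and its 8 tested lymphocyte markers 1.11 above, so the values of Atp2a2, which was lowest there, are also given without it. On TAC replicates 2 to 4 the brown adipocyte list was at -0.22, -0.15 and -0.53, beside -0.16 to 0.21 in Sham. All 12 of its markers had a negative TAC minus Sham difference (median -0.22, against -0.03 over all tested probes). In limma 0 passed an adjusted p of 0.05, and 2 were lower at an unadjusted p under 0.05, beside 8.43% of all tested probes. The 3 Sham arrays and 4 TAC arrays with scanner files lay in different rows of 1 slide, so position and surgery cannot be told apart.

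**Figure D1:**
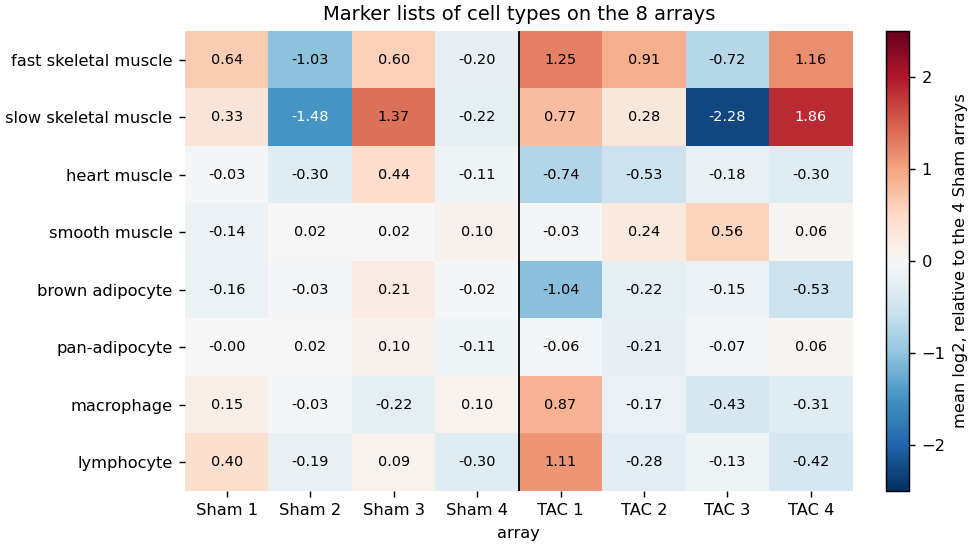
Mean log2 level of the marker lists of 8 cell types (rows) on each array (columns), relative to the mean of the 4 Sham arrays. Both skeletal muscle lists are lowest on Sham 2 and TAC 3, the fast list is highest on TAC 1 at 1.25 and the slow list on TAC 4 at 1.86, while the brown adipocyte list is lowest on TAC 1 at -1.04.

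Skeletal muscle RNA differed widely between samples of the same group. Acta1, the actin of skeletal muscle, was at 23.2, 6.15, 18.2 and 10.2 in Sham replicates 1 to 4 and at 37.8, 22.0, 6.30 and 35.1 in TAC replicates 1 to 4. The lowest array of each group, Sham 2 and TAC 3, had nearly the same level, and the groups overlapped. The TAC minus Sham difference of Acta1 was 0.998 on the log2 scale (SE 0.68, limma adjusted p = 0.555 over the 7 scanner arrays). Over all 8 arrays, with Sham replicate 1, it was 0.70 (SE 0.64, limma adjusted p = 0.64). The 14 fast muscle markers ran from -1.03 to 0.64 in Sham and from -0.72 to 1.25 in TAC (log2, relative to the mean of Sham), and the 9 slow muscle markers from -1.48 to 1.37 and from -2.28 to 1.86. Of the 8 heart muscle markers 5 were tested: Nppa, Actc1 and Myl4 were well above background on 7 arrays, Myh6 on 5 and Tnni3 on 3, while Tnnt2 and Nppb were so on 1 array each and Myl7 on 0. The mean of the 5 ran from -0.30 to 0.44 in Sham and from -0.74 to -0.18 in TAC. All 5 had a negative TAC minus Sham difference (median -0.24, against -0.03 over all tested probes), 0 passed an adjusted p of 0.05 in limma and 1 was lower at an unadjusted p under 0.05, as were 8.43% of all tested probes: Myl4, an atrial light chain (-0.70, SE 0.28, unadjusted p = 0.0407, adjusted p = 0.372). Myh6, the alpha myosin of heart, was at -0.18 (SE 0.32) and Nppa, the atrial natriuretic peptide, at -0.05 (SE 0.082). The part of heart muscle RNA in the levels of the members was not tested.

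The promoters of Acta1 and of the 3 members that best show the contrast described below are given first, since Atp2a1 and Ryr1 moved together with Acta1 and Atp2a3 was not called. Each runs from 250 bases before to 50 bases after the gene's start, 5′ to 3′, from the RefSeq promoter table of GRCm38.p6: Acta1 at chr8:123894726-123895025, minus strand; Atp2a1 at chr7:126463024-126463323, minus strand; Ryr1 at chr7:29125102-29125401, minus strand; and Atp2a3 at chr11:72960919-72961218, plus strand. Capitals mark the E-box CANNTG, the site type bound by the myogenic factors, the TATA box TATAAA and the serum response element (CArG box), searched on both strands.
Acta1: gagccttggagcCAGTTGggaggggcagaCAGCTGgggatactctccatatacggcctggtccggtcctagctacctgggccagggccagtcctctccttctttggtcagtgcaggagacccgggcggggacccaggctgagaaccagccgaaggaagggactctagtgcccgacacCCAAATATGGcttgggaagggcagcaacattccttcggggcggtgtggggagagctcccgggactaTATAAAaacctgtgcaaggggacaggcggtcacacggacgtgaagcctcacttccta
Atp2a1: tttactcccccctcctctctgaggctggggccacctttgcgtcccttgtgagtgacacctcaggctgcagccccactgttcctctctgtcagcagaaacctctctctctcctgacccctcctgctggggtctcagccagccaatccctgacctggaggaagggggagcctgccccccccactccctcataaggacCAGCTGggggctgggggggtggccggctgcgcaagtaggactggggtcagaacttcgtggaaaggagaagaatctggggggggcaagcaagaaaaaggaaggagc
Ryr1: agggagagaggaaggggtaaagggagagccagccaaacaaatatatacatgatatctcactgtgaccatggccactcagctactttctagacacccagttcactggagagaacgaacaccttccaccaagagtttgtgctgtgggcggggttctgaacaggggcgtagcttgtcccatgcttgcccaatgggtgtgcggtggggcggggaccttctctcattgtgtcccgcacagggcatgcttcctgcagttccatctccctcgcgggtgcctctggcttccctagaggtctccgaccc
Atp2a3: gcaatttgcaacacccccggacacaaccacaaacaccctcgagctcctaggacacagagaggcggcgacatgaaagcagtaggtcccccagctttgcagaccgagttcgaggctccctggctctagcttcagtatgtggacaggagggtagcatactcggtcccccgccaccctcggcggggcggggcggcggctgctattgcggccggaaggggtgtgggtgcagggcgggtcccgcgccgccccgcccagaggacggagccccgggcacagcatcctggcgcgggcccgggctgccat
In these windows the Acta1 promoter held 2 E-boxes, 1 TATA box and 1 serum response element, and the Atp2a1 promoter held 1 E-box. None of the 3 motifs was found in the Ryr1 or the Atp2a3 window. The windows of Ryr2 and Pln, searched too but not shown, held 2 E-boxes each, and that of Pln also held 1 TATA box. Among all 32851 promoters of the table, 72.3% held an E-box, 13.6% the TATA box and 1.63% a serum response element. TATAAA can also lie inside a serum response element, but no matches overlapped in the sequences shown. The table had no entry for Atp2a2, Sln or Ryr3.

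Among the pumps, Atp2a1 tracked the muscle content of the sample. Its relative intensity was 2.15, 0.782, 2.00 and 1.29 in Sham replicates 1 to 4 and 2.76, 0.897 and 3.90 in TAC replicates 2 to 4, with 3.61 in TAC replicate 1. Like Acta1, it was lowest on Sham 2 and TAC 3 and highest on TAC 4 and TAC 1, and the groups overlapped. Across the 8 arrays it spanned 4.99-fold. With surgery in the model, Atp2a1 rose by 0.80 log2 units per log2 unit of Acta1 (SE 0.052, 95% confidence interval 0.68 to 0.93, limma adjusted p = 0.00415), where a slope of 1 means a level in proportion to Acta1 and 0 a level that does not move with it. In the same fit 0.297% of all tested probes had a positive slope past an adjusted p of 0.05 and 0.003% a negative one, against 2 positive (Atp2a1 and Ryr1) and 0 negative among the 6 probes of the members.

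The size of this slope changed little when single arrays were left out, but its call depended on TAC replicate 3. Without that array, the low one of its group, the slope was 0.75 (limma unadjusted p = 0.000109). Its adjusted p was then 0.30, and 0 probes of the whole array passed. Without each of the other arrays in turn it lay between 0.79 and 0.83 and passed. With replicate number added to the model as a block it was 0.86 and did not pass (limma adjusted p = 0.146). Pearson's r of Atp2a1 with Acta1 was 0.988 over the 8 arrays (Spearman's rho 0.952; two-sided exact permutation p = 0.000248 and 0.00114; adjusted over 33363 probes 0.241 and 0.494), and r was 0.967 without Sham 2 and TAC 3, the arrays farthest from the median of Acta1. No probe passed an adjusted p of 0.05 in this permutation test, whose smallest p was 2.48e-05. The genes most like Atp2a1 over the 8 arrays were Ckm (muscle creatine kinase, r = 0.9989), Stxbp4 (r = 0.9974) and Tnnt3 (fast troponin T, r = 0.9964), given as a description.

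**Figure D2:**
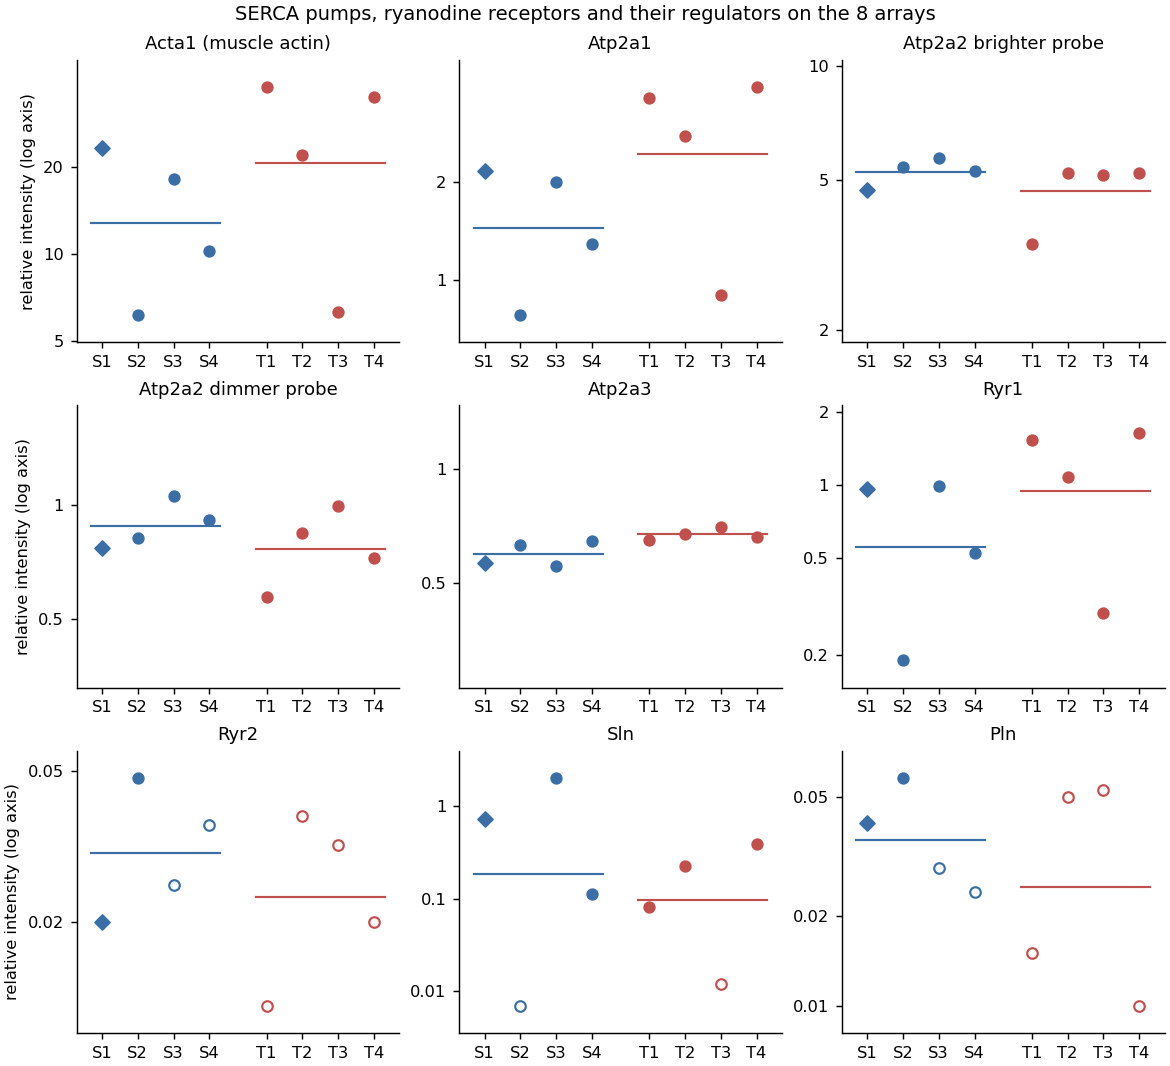
Relative intensity (log axis, scaled separately for each probe) of Acta1 and the 8 probes of the members on Sham arrays (S1 to S4, blue) and TAC arrays (T1 to T4, red). Filled circles were well above background, open circles were not, diamonds (S1) have no flag, and lines are group means of the log2 values; Atp2a1 and Ryr1, like Acta1, are lowest on S2 and T3 and highest on T1 and T4, and both Atp2a2 probes and Atp2a3 vary little.

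Atp2a2 did not share this order. Its brighter probe was at 4.69, 5.40, 5.71 and 5.29 in Sham replicates 1 to 4 and at 3.39, 5.21, 5.16 and 5.20 in TAC replicates 1 to 4. All arrays but that of TAC replicate 1 lay between 4.69 and 5.71, and the groups overlapped. The dimmer probe, matched to the same transcript, was at 0.768, 0.818, 1.06 and 0.913 in Sham and at 0.572, 0.846, 0.992 and 0.724 in TAC. It too was lowest on TAC replicate 1, and it spanned 1.85-fold over the arrays against 1.68-fold for the brighter probe. Both probes carry the accession of the same transcript, so the splice forms of SERCA2 were not told apart here.

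While Acta1 itself ranged over 6.14-fold, the slope of Atp2a2 on Acta1 was -0.10 for the brighter probe (SE 0.084, 95% confidence interval -0.30 to 0.10, limma adjusted p = 0.959) and -0.15 for the dimmer one (SE 0.090, -0.36 to 0.06, adjusted p = 0.959). Without TAC replicate 1 these slopes were -0.019 and -0.092. Both intervals lie far below the slope of Atp2a1. The difference itself, fitted as the log ratio of Atp2a1 over the brighter Atp2a2 probe, was 0.90 (SE 0.063, 95% confidence interval 0.75 to 1.05, limma adjusted p = 0.00358 over 33369 rows, 6 pairs of members compared). Without TAC replicate 3 the difference was 0.87 and its adjusted p 0.256, and without any other single array it lay between 0.85 and 0.93 and passed. With replicate number as a block it did not pass. Nor did the differences of Atp2a1 over Atp2a3 and of Ryr1 over Atp2a2 given below. Where the slow muscle list stood in for Acta1, the slope of the brighter Atp2a2 probe was -0.02. Pearson's r with Acta1 over the 8 arrays was negative, at -0.52 for the brighter and -0.63 for the dimmer probe. The two-sided exact permutation p was 0.182 and 0.0911, and 0.854 for both after adjustment. Spearman's rho was -0.62 and -0.69. Without Sham 2 and TAC 3, r was -0.59 and -0.77, and it was not computed without TAC replicate 1. The genes most like the brighter probe were Apeh (r = 0.9979), Cdo1 (r = 0.9962) and Olfr221 (r = 0.9949), and those most like the dimmer one Sprtn (r = 0.9892), Vgll4 (r = 0.982) and Bfar (r = 0.9818), over 8 arrays of which TAC replicate 1 was the lowest for both probes.

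Atp2a3 was the steadiest of the pumps. It was at 0.565, 0.628, 0.553 and 0.646 in Sham replicates 1 to 4 and at 0.649, 0.674, 0.704 and 0.662 in TAC replicates 1 to 4. All 4 TAC arrays lay above all 4 Sham arrays, the closest pair being Sham 4 at 0.646 and TAC 1 at 0.649, a separation that 3.53% of all tested probes also showed in this direction and 6.29% in the other. No other member separated the groups. Its slope on Acta1 was -0.06 (SE 0.042, 95% confidence interval -0.16 to 0.04, limma adjusted p = 0.959), and the slope of Atp2a1 exceeded it by 0.87 (SE 0.051, 0.75 to 0.99, adjusted p = 0.00358; 0.85 with adjusted p = 0.256 without TAC replicate 3). Between Atp2a2 and Atp2a3 the difference of slopes was -0.04 (SE 0.088, 95% confidence interval -0.24 to 0.17), and 0.045 without TAC replicate 1. The genes most like Atp2a3 were Stam (r = 0.9577), Zfp975 (r = 0.9528) and Strn4 (r = 0.9458). Markers of blood cells and endothelium overlapped between the groups, and no epithelial list was drawn up. The 8 lymphocyte markers ran from -0.30 to 0.40 in Sham and from -0.42 to 1.11 in TAC. Their mean was at 1.11 on TAC replicate 1 but at -0.28, -0.13 and -0.42 on TAC replicates 2 to 4. All 8 had a positive TAC minus Sham difference, with 0 under an unadjusted p of 0.05 in limma. That difference was taken over the 7 scanner arrays, without Sham replicate 1, the highest Sham array at 0.40. The 7 macrophage markers ran from -0.22 to 0.15 and from -0.43 to 0.87, and the 4 erythroid markers from -0.60 to 0.72 and from -0.40 to 0.345. The 4 platelet markers ran from -0.24 to 0.33 in Sham and from -0.25 to 0.19 in TAC, and the 7 endothelial markers from -0.07 to 0.11 and from -0.07 to 0.02. Their part in the level of Atp2a3 was not tested.

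**Figure D3:**
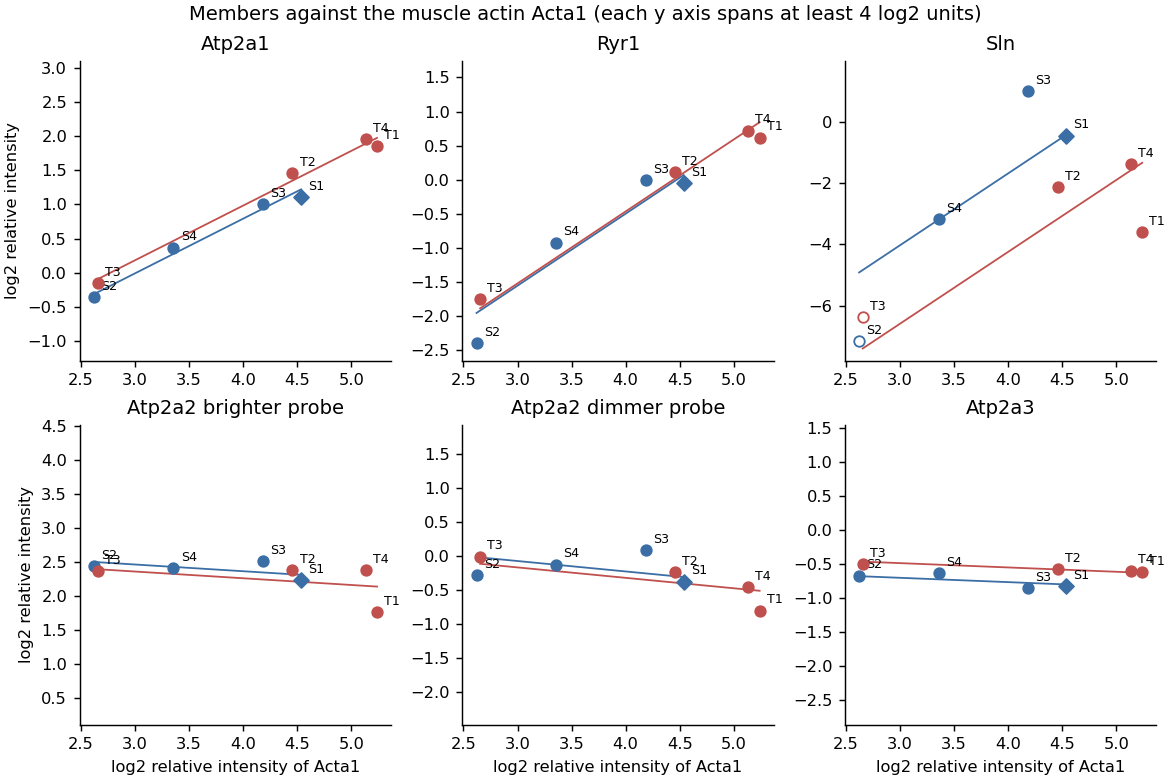
Log2 relative intensity of each tested probe (y) against that of Acta1 (x) on the 8 arrays, Sham in blue and TAC in red; open circles were not well above background, diamonds have no flag, and the lines carry the slope of the model with surgery as a term. Atp2a1 and Ryr1 rise with Acta1, with fitted slopes of 0.80 and 1.06, and the 3 lower panels stay nearly flat. The slope of 2.35 drawn for Sln missed the threshold, and 2 of its points are open circles.

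Of the release channels, Ryr1 behaved like Atp2a1. Its relative intensity was 0.965, 0.190, 0.997 and 0.527 in Sham replicates 1 to 4 and 1.53, 1.08, 0.297 and 1.65 in TAC replicates 1 to 4, a span of 8.66-fold. Sham 2 and TAC 3 were again the lowest arrays and TAC 1 and TAC 4 the highest, with overlapping groups. Its slope on Acta1 was 1.06 (SE 0.10, 95% confidence interval 0.81 to 1.30, limma adjusted p = 0.0123), an interval that holds a level in proportion to Acta1. The slope was 1.18 without TAC replicate 3 and 1.06 without TAC replicate 4, with adjusted p of 0.351 and 0.0589, and it passed without each of the other arrays. With replicate number added to the model as a block it was 1.15 and did not pass (limma adjusted p = 0.225).

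Pearson's r of Ryr1 with Acta1 was 0.975 (Spearman's rho 0.905; two-sided exact permutation p = 0.000298 and 0.00456; adjusted 0.241 and 0.575) and 0.976 without Sham 2 and TAC 3. The slope of Ryr1 exceeded that of Atp2a2 by 1.16 (SE 0.094, 95% confidence interval 0.94 to 1.38, limma adjusted p = 0.00582; 1.30 with adjusted p = 0.256 without TAC replicate 3). It exceeded that of Atp2a1 by 0.25 (SE 0.088, 0.05 to 0.46), which missed the threshold (adjusted p = 0.827). The genes most like Ryr1 were Neb (nebulin of the thin filament, r = 0.996), Rpl3l (a ribosomal protein of striated muscle, r = 0.9926) and Jsrp1 (a protein of the muscle triad, r = 0.9925).

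Ryr2 and Pln, the heart's release channel and pump inhibitor, were at the edge of detection. Ryr2 was at 0.020, 0.048, 0.025 and 0.036 in Sham and at 0.012, 0.038, 0.032 and 0.020 in TAC. Pln was at 0.041, 0.058, 0.029 and 0.024 in Sham and at 0.015, 0.050, 0.053 and 0.010 in TAC. Each was well above background on 1 of the 7 scanner arrays, Sham replicate 2, an array with little muscle RNA. Neither was tested, the groups overlapped for both, and no fold is given.

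Sln differed widely between arrays. It was at 0.732, 0.007, 2.00 and 0.111 in Sham replicates 1 to 4 and at 0.082, 0.227, 0.012 and 0.387 in TAC replicates 1 to 4. The lowest values, on Sham 2 and TAC 3, were not well above background, and these are the arrays lowest in Acta1. The order above them differed from that of Acta1: Sham 3 was highest, and TAC 1, with the most Acta1, was among the low arrays. The slope of Sln on Acta1 was 2.35 (SE 0.61, 95% confidence interval 0.92 to 3.78, unadjusted p = 0.00585, limma adjusted p = 0.549) and missed the threshold, with 2.68% of all tested probes at a positive and 2.54% at a negative slope under an unadjusted p of 0.05.

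The correlation of Sln with Acta1, computed without surgery as a term, rested on the arrays where Sln was not well above background. Pearson's r was 0.69 over the 8 arrays (Spearman's rho 0.476; two-sided exact permutation p = 0.0634 and 0.243; adjusted 0.854 and 0.731), and it was -0.05 without Sham 2 and TAC 3. The slope, with surgery in the model, was 1.72 without Sham 2 and 3.26 without TAC 3, and missed the adjusted threshold each time. It was not fitted without both arrays. The gene most like Sln was Vgll2, a cofactor of skeletal muscle transcription (r = 0.9407), followed by Trank1 (r = 0.9263) and Cyp26b1, which breaks down retinoic acid (r = 0.9216). On Sham 3 the slow muscle list was at 1.37, second to TAC 4 at 1.86, and the fast muscle list at 0.60, below Sham 1 and 3 of the TAC arrays. The slope of Sln was 3.08 on the fast muscle list (unadjusted p = 0.00112, limma adjusted p = 0.241), 2.56 on Ckm (unadjusted p = 0.00175, adjusted p = 0.301) and 1.73 on the slow muscle list (unadjusted p = 0.002, adjusted p = 0.389). Its adjusted p over 18 alternatives ran from 0.241 to 1.

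**Figure D4:**
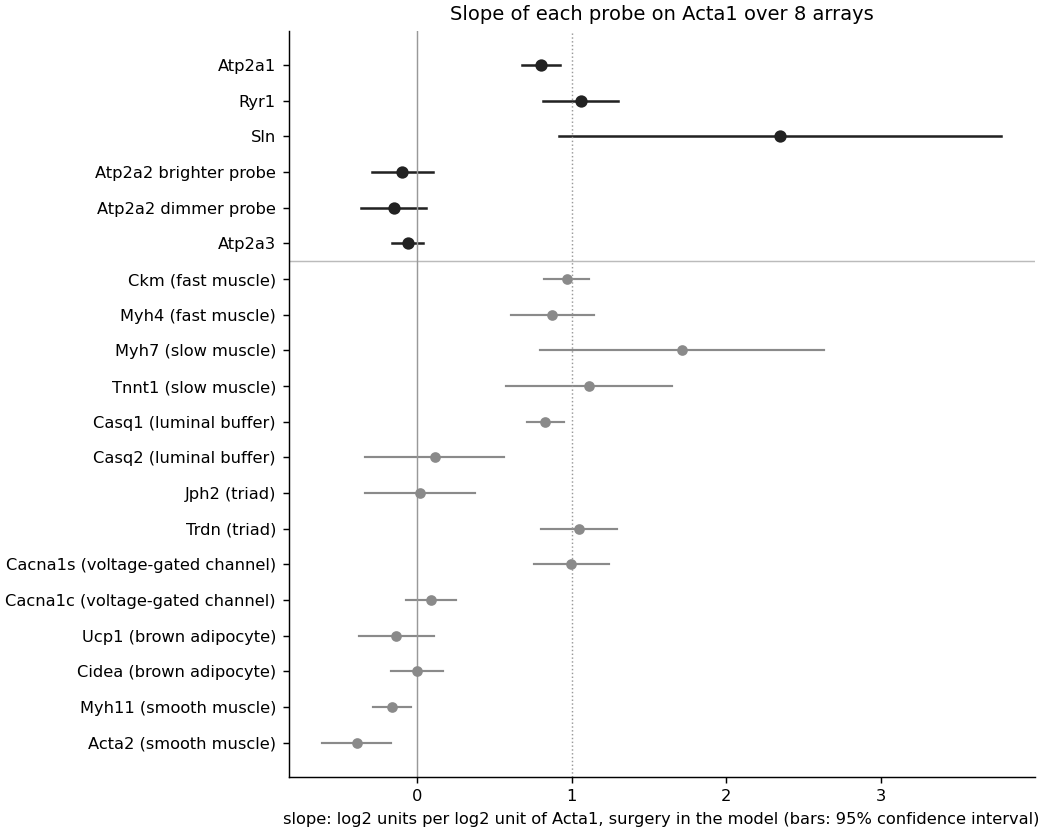
Slope of each probe on Acta1 (x axis, log2 units per log2 unit, surgery in the model, 8 arrays) with its 95% confidence interval, for the 6 tested probes of the members (black) and named genes of the muscle, calcium and brown adipocyte lists (grey). Atp2a1 and Casq1 lie below the dotted line at 1, which their intervals exclude. Ryr1, Trdn and Cacna1s lie near that line, and Atp2a2, Atp2a3, Ucp1 and Cidea near 0.

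Partners of these proteins were compared with Acta1 in the same way, list by list. Of the 7 luminal calcium buffers, 1 had a positive slope on Acta1 past the threshold and 0 a negative one (median slope 0.08, against -0.02 over all tested probes): it was Casq1, the calsequestrin of fast muscle, with a slope of 0.83 (SE 0.051, limma adjusted p = 0.00415). Casq2, the calsequestrin of heart and slow muscle, had a slope of 0.11 (SE 0.19, adjusted p = 0.96). Hrc, also of this list, narrowly missed the threshold at 0.75 (SE 0.11, limma adjusted p = 0.0553). Of the 14 tested partners of the triad and of ryanodine receptors, 1 was called, Trdn (triadin), which anchors calsequestrin to the release channel, with a slope of 1.05 (SE 0.11, adjusted p = 0.0132). Jph2, a junctophilin that holds the triad membranes together, was at 0.01 (SE 0.15, adjusted p = 0.992) and was well above background on only 4 scanner arrays. Tmem38a and Stac3 missed the threshold at 0.33 (SE 0.052, limma adjusted p = 0.0915) and 0.40 (SE 0.066, limma adjusted p = 0.102). Of the 11 tested voltage-gated channel subunits, 1 was called, Cacna1s, the voltage sensor that opens Ryr1 in skeletal muscle, with a slope of 0.996 (SE 0.10, adjusted p = 0.0144), while Cacna1c, the channel of heart and smooth muscle, was at 0.09 (SE 0.069, adjusted p = 0.959). In comparison, 10 of 14 fast muscle markers and 4 of 9 slow ones had a positive slope past the threshold, and 0 of 12 brown adipocyte markers did. These counts stand beside 0.297% of all tested probes with a positive and 0.003% with a negative slope. The small peptides Mrln, Strit1, Erln and Arln, which bind SERCA like Sln and Pln, matched no probe and stay outside these comparisons. Without TAC replicate 3 no probe of the array passed in limma, Casq1, Trdn and Cacna1s included.

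Between TAC and Sham no member passed the test. Over the 7 scanner arrays, 0 of the 6 probes passed an adjusted p of 0.05 in limma, beside 0% of the 33364 tested probes in either direction. At an unadjusted p under 0.05 it was also 0 of 6, where 4.38% of all tested probes were higher and 8.43% lower after TAC, and the 2-tailed t-test named in the study's methods gave 0 of 6 at either threshold. In these bulk samples fewer cells of a type and less RNA per cell cannot be told apart.

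Atp2a1 was higher by 0.96 log2 units after TAC (SE 0.57, 95% confidence interval -0.38 to 2.30, limma adjusted p = 0.505) and Ryr1 by 1.05 (SE 0.76, -0.74 to 2.84, adjusted p = 0.577), both beside 0.998 for Acta1. These values followed the muscle-poor arrays. Without TAC replicate 3 they were 1.44 and 1.61, with unadjusted p of 0.0059 and 0.033 and adjusted p of 0.322 and 0.386, and without Sham replicate 2 they were 0.61 and 0.40. Atp2a2 was at -0.21 (SE 0.17, 95% confidence interval -0.62 to 0.20, adjusted p = 0.622) on its brighter and -0.25 (SE 0.20, -0.72 to 0.22, adjusted p = 0.611) on its dimmer probe, and at -0.05 and -0.11 without TAC replicate 1. Atp2a3 was at 0.16 (SE 0.087, -0.05 to 0.37, adjusted p = 0.481), and at 0.10 without Sham replicate 3. Sln was at -0.23 (SE 2.00, -4.95 to 4.49, adjusted p = 0.969), and its sign turned without Sham replicate 3, at 1.84, and without TAC replicate 3, at 0.77.

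With Acta1 held equal in the table of 8 arrays, the differences of the muscle members were smaller. The step takes off the slope times the difference of Acta1, which was 0.70 in this table. The change therefore follows from the slopes given above and is not a separate result. Before this step the table gave 0 of 6 member probes under an unadjusted p of 0.05, beside 4.65% of all tested probes higher and 9.56% lower. For Atp2a1 the difference was 0.75 (95% confidence interval -0.44 to 1.94) before and 0.19 (-0.05 to 0.43, limma adjusted p = 0.51) after, and for Ryr1 it was 0.77 (-0.82 to 2.36) before and 0.03 (-0.44 to 0.50, adjusted p = 0.965) after. This depended on the muscle measure: with the slow muscle list held equal they stayed at 0.67 for Atp2a1 (unadjusted p = 0.00672, adjusted p = 0.279) and 0.66 for Ryr1 (unadjusted p = 0.0337, adjusted p = 0.352), with the fast list they were 0.12 and -0.078, and with Ckm -0.003 and -0.23. For Atp2a2 it was -0.17 and -0.10 (-0.48 to 0.28 after) on the brighter probe and -0.20 and -0.09 on the dimmer one. Without TAC replicate 1 the values at equal Acta1 were -0.01 and -0.021, and without Sham replicate 3 the dimmer probe was at 0.051. For Atp2a3 it was 0.17 before and 0.22 after (SE 0.081, 0.03 to 0.41, unadjusted p = 0.0315, adjusted p = 0.39), the 1 member of 6 under an unadjusted p of 0.05 where 4.1% of all tested probes were higher and 7.51% lower. Its adjusted p over 18 alternatives ran from 0.348 to 1. For Sln it was -0.93 before and -2.56 after (SE 1.18, -5.33 to 0.20, unadjusted p = 0.0646, adjusted p = 0.454). At an adjusted p of 0.05 the count was 0 for the members and 0% over all tested probes.

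**Figure D5:**
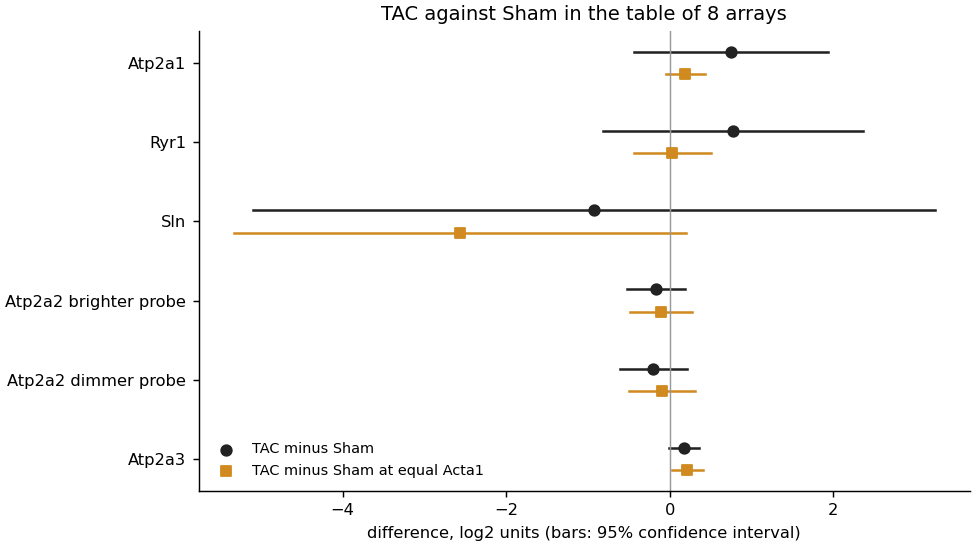
TAC minus Sham difference (x axis, log2 units, bars are 95% confidence intervals) of the 6 tested probes in the table of 8 arrays, before (black circles) and after (orange squares) holding Acta1 equal. The intervals of Atp2a1 and Ryr1 narrow towards 0, at 0.19 and 0.03, that of Sln stays wide, and that of Atp2a3 moves from 0.17 to 0.22.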

How the data were processed

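Total RNA of BAT was labelled with Cy3 and hybridized to one-colour arrays, and read by the authors with Agilent Feature Extraction 10.7.1.1, per the labels. The deposited scanner intensity (7 arrays) has its background subtracted and carries no scaling across arrays. The deposited table (8 arrays) does not state its processing. For at least 99.8% of probes above 100 units its intensity was, to within 1%, 1 constant per array times the scanner value, and the 75th percentile of each column was between 1.002 and 1.004. Outlier spots were left out, log2 values were centred on the 75th percentile of the array, and spots of a probe were averaged. Tested probes were well above background on 3 or more scanner arrays, with values on 2 or more in both groups. The groups were compared over the 7 scanner arrays with lmFit and eBayes of limma 3.58.1 (R 4.3.3), two-sided, with Benjamini-Hochberg adjustment over all tested probes. Slopes on Acta1 and differences at equal Acta1 came from limma on the table of 8 arrays, and slope differences from log ratios added to that fit. Correlations used exact permutations (Python 3.11.15). The number of arrays limits the precision. Probes were named by accession through RefSeq genes of GRCm38.p6; the array was designed on another assembly.

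The rule for named genes took all members with every probe, Acta1, the first 2 tested genes of each list, and the 3 genes most correlated with each member. Several marker lists are given by their levels alone, and Tnnt2, Nppb, Myl7, Actc1, Myl4, Tnni3, Hrc, Tmem38a and Stac3 were added after their values were seen. The members and lists were chosen with earlier results of these data known. The replicates are separate samples by the labels. The fits were tested on simulated data. Alternatives were background correction, centring, filters, muscle measure, array weights, the methods' t-test, the replicate block and single arrays left out. The slow muscle list and the alternatives of the slope differences were chosen after seeing the data. Values of the kinases, phosphatases and calmodulins at an unadjusted p are not reported here.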

Additional observations from a re-analysis of the deposited data

Results flagged for a closer look

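The brighter Atp2a2 probe was low on 1 array of the TAC group. TAC replicate 1 was at 3.39 and the other 3 TAC arrays between 5.16 and 5.21, so that its gap to the nearest was 0.977 of the group's range, above the limit for 4 samples. The dimmer Atp2a2 probe was also lowest there, at 0.572 against 0.724 to 0.992, with a gap of 0.428 of the range. On the same array the brown adipocyte list was at -1.04 and the macrophage list at 0.87, relative to the mean of Sham, and their part in the level of Atp2a2 was not tested. The search for a lone array covered 18 sets of 4 values, from the 8 probes of the members and Acta1 in each surgery group. It found 1, and chance alone picks out about 1 in 20.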

How the results depend on the processing

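The limits are 4 arrays a group, 1 slide row for each group in the scanner files, and arrays that differ in muscle RNA more than the groups do. Between TAC and Sham, 118 of the 120 alternative values of the members kept their direction and their side of the threshold. The exceptions were the 2 for Sln given above, in a range from -2.28 to 1.84 without single arrays. Over all probes 0 were called in each direction, and 1 lower with normexp, median centring and array weights alike. Without single arrays, 0 to 7 were higher and 0 to 1 lower, the most without TAC replicate 4. The methods' t-test gave 1602 probes higher and 2587 lower at an unadjusted p under 0.05 and 0 after adjustment.

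The 99 positive slopes on Acta1 were 60 in the 7 scanner arrays, 49 without the filter on dim probes, 0 with the slow muscle list (added after seeing the data) and 0 to 87 without single arrays, with 0 without TAC replicate 3 and 29 without TAC replicate 4. The 1 negative slope was 0 with the fast or the slow muscle list, with every array required above background and with an intensity trend, 2 with Ckm, without the filter and without the group term, and 0 to 3 without single arrays. The slow muscle list gave slopes of 0.54 for Atp2a1 and 0.71 for Ryr1 with adjusted p of 0.0724 and 0.074. Over all alternatives the adjusted p ran from 0.000586 to 0.3 for Atp2a1, which passed in 16 of 19, and from 0.00133 to 0.351 for Ryr1, which passed in 15 of 19.

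At equal Acta1, the difference of Ryr1 turned negative in the 7 scanner arrays at -0.032, with the fast muscle list at -0.078 and with Ckm at -0.23, was 0.66 with the slow muscle list, and ran from -0.17 to 0.16 without single arrays. That of Atp2a1 was -0.003 with Ckm and 0.67 with the slow muscle list, and that of the dimmer Atp2a2 probe ran from -0.25 to 0.051 without single arrays. With single arrays left out, 0 to 14 probes were higher and 0 to 1 lower at equal Acta1, the most without TAC replicate 4. The correlation with Acta1 turned to 0.20 for Atp2a3 and -0.05 for Sln without the 2 arrays farthest from the median. The difference of slopes of Atp2a2 and Atp2a3 ran from -0.072 to 0.045 without single arrays.

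Replicate numbers did not pair the arrays: deviations from the group means correlated at 0.27, 0.02, 0.056 and 0.02 for the pairs 1 to 4. With the replicate block, 0 probes had a positive and 0 a negative slope on Acta1, the slopes were 0.86 for Atp2a1 (adjusted p = 0.146), 1.15 for Ryr1 (adjusted p = 0.225) and 0.032 for the brighter Atp2a2 probe, Ryr1 at equal Acta1 was at -0.031, and the Atp2a2 minus Atp2a3 difference of slopes was 0.115. The differences of slopes of Atp2a1 over Atp2a2, Atp2a1 over Atp2a3 and Ryr1 over Atp2a2 were then 0.83, 0.94 and 1.12, with adjusted p of 0.231, 0.136 and 0.253. The block gave 0 calls between TAC and Sham.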

Other observations

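Other genes of cellular calcium handling in the lists had no call for a slope on Acta1 or for surgery. With so few arrays, a missing call does not show that they are unrelated to either. None of the 9 IP3 receptor and store-operated entry genes, the 6 tested genes of extrusion at the plasma membrane, the 11 of mitochondrial calcium handling and the 13 kinases, phosphatases and calmodulins had a slope on Acta1 past the threshold, with median slopes of 0.02, 0.02, -0.01 and -0.00. In that order their slopes ran from -0.058 to 0.046, from -0.035 to 0.124, from -0.119 to 0.431 and from -0.159 to 0.264. Itpr1, a receptor that releases calcium from the endoplasmic reticulum, had a slope of -0.03 (SE 0.065), and Atp2b1, a calcium pump of the plasma membrane, 0.02 (SE 0.073).

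Between TAC and Sham 0 of these genes passed an adjusted p of 0.05 in limma, as did 0% of all tested probes. The difference was negative for 9 of the 11 mitochondrial genes (median -0.09). It was negative for 10 of the 13 kinases, phosphatases and calmodulins (median -0.13). The median was -0.01 for the IP3 receptor and store-operated entry genes, 0.025 for the extrusion genes and -0.03 over all tested probes. At an unadjusted p under 0.05, 2 of the 11 mitochondrial genes were lower and 0 were higher, beside 8.43% of all tested probes lower. They were Letm1, an exchanger of the inner mitochondrial membrane (-0.54, SE 0.15, adjusted p = 0.268), and Vdac3, a channel of the outer membrane (-0.20, SE 0.082, adjusted p = 0.387). These 2 were chosen after their values were seen. Mcu, the pore of the mitochondrial calcium uniporter, was at 0.08 (SE 0.13, adjusted p = 0.806).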
